A study of Homo sapiens with 4 samples.

Results

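The genes described here are 10 imprinted genes, NNAT, H19, IGF2, PEG3, PEG10, MEST, NDN, SNRPN, CDKN1C and GNAS, picked by symbol. All 10 were found among the 59533 genes whose symbol stands on a single line of a deposited table of 60612 lines. RNA was sequenced from HCC1937, a line from a breast carcinoma, and THP-1, a line from a monocytic leukaemia, both labelled p53-/- and both infected with p53-R282W, a p53 protein with a substitution in its DNA-binding part. DAC is decitabine, a cytidine analogue that depletes DNA methyltransferases and so lowers DNA methylation. The 4 groups, with 1 library in each, were HCC1937 given 0.3 µM DAC for 5 days, HCC1937 without DAC, THP-1 given 5 µM DAC for 2 days, and THP-1 without DAC. All 4 libraries carried p53-R282W, and no library without it was analysed here. Values are treated as FPKM, fragments scaled by gene length and by library depth, and so compare genes per unit of length. The deposited table names no unit, and FPKM was inferred from the values.

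An imprinted gene is one whose maternal and paternal copies are used unequally, because methylation laid down in egg or sperm marks one copy. The marks sit in control regions that often govern a cluster of genes, some used from the maternal copy and others from the paternal copy. In embryonic tissues many of these genes act on growth, and in tumours loss or gain of methylation at their control regions is common. The table gives 1 value per gene and holds no information on alleles, so RNA from 1 copy and RNA from both copies cannot be told apart. Fewer cells with RNA of a gene and less of that RNA per cell cannot be told apart either.

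With 1 library per group no test between groups was possible, and no p-value is given. A gene was called higher or lower when its 2 libraries differed by at least 2-fold on the log2(FPKM + 1) scale, among genes that reached 1 FPKM with or without DAC in that line. Reads per gene were estimated from the values, and exact 95% intervals of each ratio (Clopper-Pearson) cover counting error only. The estimated depth was 18.7 M reads in each HCC1937 library, 19.6 M in THP-1 with DAC and 19.5 M in THP-1 without it. Over all genes, the HCC1937 library with DAC stood above its untreated partner by a median of 0.19 on the log2 scale. That median was -0.04 after median-of-ratios scaling and -0.06 after upper-quartile scaling, and the counts called moved with it: 1452 genes higher and 202 lower with the values as deposited, 1090 and 451 with the first scaling, and 1063 and 480 with the second. In THP-1 the median was 0.07. All 12 epithelial markers reached 1 FPKM in both HCC1937 libraries, and all 12 myeloid markers did so in both THP-1 libraries. Dose and duration differed between the lines, and the THP-1 columns imply other gene lengths than the HCC1937 columns, so the lines are set side by side and their levels are not compared unless stated.

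In HCC1937, NNAT and H19 were higher with DAC and no gene of the 10 was called lower. NNAT, which encodes neuronatin, a small membrane protein of the endoplasmic reticulum, had 53 FPKM with DAC and 0.36 FPKM without it. H19, a long non-coding RNA, had 3.43 FPKM with DAC and was listed at 0 without it. IGF2 and NDN were listed at 0 in both untreated lines and above 0 in both lines with DAC, always under 1 FPKM. In THP-1 none of the 10 genes was called, and the largest difference was that of CDKN1C, at 4.4 FPKM with DAC and 2.05 FPKM without it.

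**Figure D1:**
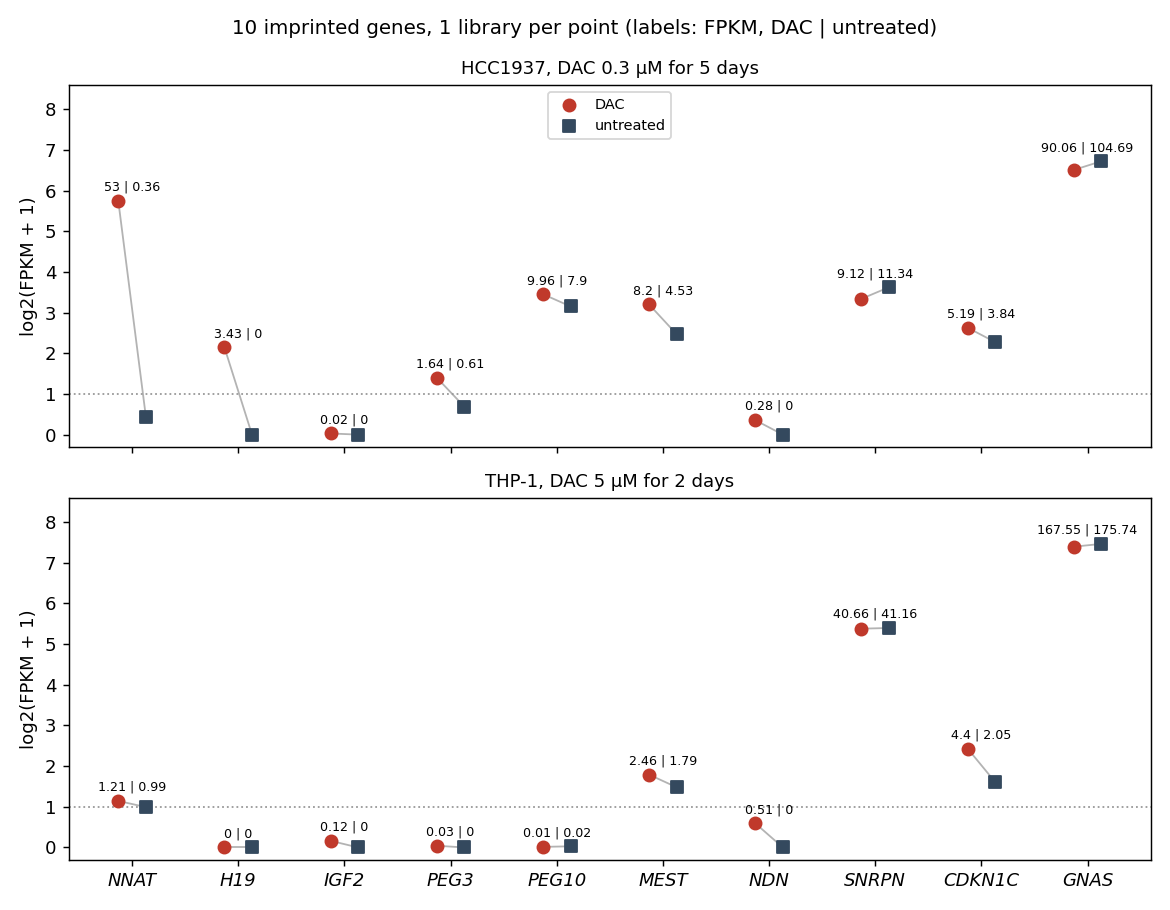
Levels of the 10 imprinted genes in each library, on the log2(FPKM + 1) scale, with the FPKM of the DAC library and then of the untreated library printed above each pair. Each point is 1 library, the dotted line marks 1 FPKM, and NNAT and H19 show the widest gaps in HCC1937 while the pairs in THP-1 lie close together.

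Of the 10 genes, 8 reached 1 FPKM in at least 1 HCC1937 library, and 2 of these were called higher. Over all 14058 genes at that level, 10.3% were called higher and 1.44% lower. NNAT, H19 and PEG3 reached 1 FPKM through the DAC library alone, so the count of 2 is a description and no sign of how the 10 genes behaved as a group. The same limit holds for the median difference of the 8 genes, which was 0.53 on the log2 scale, against 0.19 for all genes. In THP-1, 5 of the 10 genes reached 1 FPKM, with a median of 0.15 against 0.07 for all genes. NNAT reached 1 FPKM there through the DAC library alone, and the median of 0.15 is its own value. None of the 5 was called, where 1.14% of 12075 genes were called higher and 0.364% lower.

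**Figure D2:**
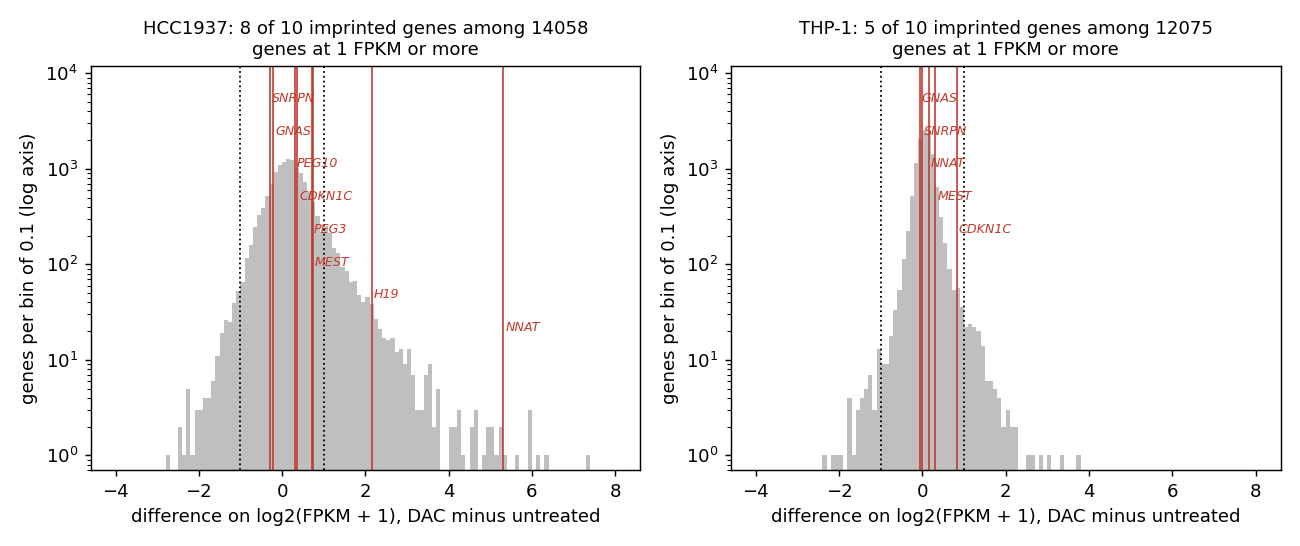
Number of genes (log axis) by their difference on the log2(FPKM + 1) scale, DAC minus untreated, for all genes that reached 1 FPKM with or without DAC in HCC1937 (left) or THP-1 (right). Red lines mark the imprinted genes at that level and dotted lines mark 2-fold; in HCC1937 NNAT and H19 lie beyond the upper dotted line, and in THP-1 all 5 lie between the dotted lines.

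The start sites of H19 and NDN, listed at 0 without DAC in HCC1937, are shown here beside those of MEST and SNRPN, which had RNA without DAC, because DAC acts on methylation of CG pairs. Each window runs from 250 bases before to 50 bases after a RefSeq start site (GRCh38.p14), is written 5′ to 3′ on the gene's own strand, and has its CG pairs in capitals. Genes with several start sites have other windows, and the table does not say which start was used.
H19, chr11:2001217-2001516, minus strand: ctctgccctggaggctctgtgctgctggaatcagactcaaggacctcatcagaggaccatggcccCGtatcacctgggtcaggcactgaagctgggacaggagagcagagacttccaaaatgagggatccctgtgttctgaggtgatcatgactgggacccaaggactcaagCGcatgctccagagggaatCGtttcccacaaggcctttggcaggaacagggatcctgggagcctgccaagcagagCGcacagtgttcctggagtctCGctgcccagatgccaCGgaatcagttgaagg
NDN, chr15:23687256-23687555, minus strand: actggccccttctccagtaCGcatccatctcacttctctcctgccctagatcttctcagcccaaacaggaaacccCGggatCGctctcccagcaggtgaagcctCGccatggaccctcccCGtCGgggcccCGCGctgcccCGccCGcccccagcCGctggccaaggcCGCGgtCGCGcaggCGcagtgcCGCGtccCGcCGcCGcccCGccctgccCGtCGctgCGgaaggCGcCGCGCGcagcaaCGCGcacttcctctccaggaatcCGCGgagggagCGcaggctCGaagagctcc
MEST, chr7:130491808-130492107, plus strand: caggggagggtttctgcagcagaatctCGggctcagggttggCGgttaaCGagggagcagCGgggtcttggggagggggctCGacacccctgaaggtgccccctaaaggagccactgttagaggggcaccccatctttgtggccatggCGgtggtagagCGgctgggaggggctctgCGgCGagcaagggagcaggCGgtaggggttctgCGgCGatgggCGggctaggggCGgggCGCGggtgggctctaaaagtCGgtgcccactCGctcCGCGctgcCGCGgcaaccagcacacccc
SNRPN, chr15:24954737-24955036, plus strand: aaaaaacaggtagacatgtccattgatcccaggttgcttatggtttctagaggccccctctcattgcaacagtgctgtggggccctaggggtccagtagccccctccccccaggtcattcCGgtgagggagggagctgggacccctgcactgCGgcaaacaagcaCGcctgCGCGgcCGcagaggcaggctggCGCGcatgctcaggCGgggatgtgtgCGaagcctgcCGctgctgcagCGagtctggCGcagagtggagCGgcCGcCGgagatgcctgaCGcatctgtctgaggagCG
The H19 window holds 6 CG pairs and the NDN window 35, where the median of 35116 RefSeq windows is 14. The MEST window holds 22 and the SNRPN window 18. Other windows of the same genes differ, with 13 to 25 CG pairs over all MEST windows and 2 to 18 over all SNRPN windows. The GNAS windows, not printed, hold 10 to 43. ZFP57, a zinc finger protein that keeps methylation at imprinted control regions, recognises the letters TGCCGC when their CG is methylated. Those letters, or GCGGCA on the other strand, occur 2 times in the MEST window, 2 times in the SNRPN window, 1 time in the NDN window and not in the H19 window, and 16.7% of all windows hold at least 1. The 2 in the MEST window overlap each other. Over all windows they occur 0 to 3 times for MEST and 0 to 2 times for SNRPN. Control regions outside these windows, such as the one between H19 and IGF2, were not searched. RefSeq windows were matched for 5 of the 10 genes.

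NNAT lies on chromosome 20 at 37521206 to 37523693 on the plus strand (hg38, GENCODE 29, ENSG00000053438.9), within the span of BLCAP, a gene on the other strand. In neurons and fat cells its product acts on calcium stores. The HCC1937 values correspond to about 1321 reads with DAC and 9 reads without it. The ratio was 147-fold with a counting interval of 77.0 to 322, a difference of 5.31 on the log2 scale, and the gain ranked 8 among 14058 genes. With DAC, NNAT stood second to GNAS among the 10 genes in HCC1937, and without DAC it stood below all but the genes listed at 0. In THP-1, NNAT had 1.21 FPKM with DAC and 0.99 FPKM without it, about 31 and 25 reads, and the interval of that ratio, 0.703 to 2.17, included 1.

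BLCAP, the host of NNAT, had 18.96 FPKM with DAC and 20.42 FPKM without it in HCC1937. THP-1 cells had 28.56 FPKM with DAC and 24.84 FPKM without it. NNAT thus moved in HCC1937 without a like move of BLCAP, and 6.38% of the exon bases of NNAT overlap those of BLCAP on the other strand. Neuronal genes were looked at because NNAT is named for neurons. Of 6 neuron markers, 1 reached 1 FPKM with DAC and 1 without it in HCC1937, and their summed level was 5.51 FPKM with DAC and 2.32 FPKM without it. None of the 6 was at 0 with DAC, and ELAVL3 was at 0 without it. Fibroblast markers summed to 9.28 FPKM with DAC and 3.28 FPKM without it, with 1 of 6 at 1 FPKM or more in each library and DCN at 0 in both. Myeloid markers summed to 7.04 FPKM with DAC and 0.45 FPKM without it, with 2 of 12 at 1 FPKM or more with DAC and 0 without it. With DAC, PRTN3, CD33, LYZ and LILRB4 were at 0. The part of these shifts in the NNAT and H19 results was not tested.

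H19, IGF2 and CDKN1C lie in a cluster on chromosome 11. H19 is used from the maternal copy and IGF2, a growth factor of the insulin family, from the paternal copy, and a control region between them, bound by CTCF when unmethylated, decides which is used. H19 lies at 1995176 to 2001470 on the minus strand. Its 3.43 FPKM in HCC1937 with DAC correspond to about 186 reads, and it was listed at 0 without DAC. The difference was 2.15 on the log2 scale and ranked 228 among 14058 genes, and no ratio is given against a value of 0. In THP-1, H19 was listed at 0 with DAC and at 0 without it.

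IGF2 lies at 2129112 to 2149603 on the same strand. It had 0.02 FPKM in HCC1937 with DAC, about 3 reads, and was listed at 0 without DAC. The THP-1 library with DAC had 0.12 FPKM, about 13 reads, and IGF2 was listed at 0 there without DAC. These levels were far under the 1 FPKM needed for a call, so IGF2 did not follow H19 to a level that could be called in HCC1937. On the same strand, 73.7% of its exon bases are shared with other annotated entries, namely INS-IGF2, AC132217.1 and another entry also named IGF2. The IGF2 value therefore depends on how shared reads were counted.

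H19 RNA is the precursor of 2 mature miRNAs, shown here because H19 was among the called genes, with their seeds (bases 2 to 8) in capitals as RefSeq gives them.
hsa-miR-675-5p: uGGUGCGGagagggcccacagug
hsa-miR-675-3p: cUGUAUGCccucaccgcuca
They lie on chromosome 11, at 1996800 to 1996822 and at 1996768 to 1996787. The miRNA gene MIR675 was listed at 0 in all 4 libraries. All of its bases lie within H19 exons, and libraries made from mRNA do not capture mature miRNAs.

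CDKN1C encodes an inhibitor of cyclin-dependent kinases, is used from the maternal copy and slows growth. It lies at 2883213 to 2885773 on the minus strand. In HCC1937 it had 5.19 FPKM with DAC and 3.84 FPKM without it, 1.35-fold with an interval of 1.11 to 1.65. In THP-1 it had 4.4 FPKM with DAC and 2.05 FPKM without it, about 167 and 77 reads. The THP-1 ratio was 2.15-fold with an interval of 1.63 to 2.86, but on the log2(FPKM + 1) scale the difference was 0.82, below the call. With a pseudocount of 0.1 in place of 1, CDKN1C would be called.

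Around these genes on chromosome 11, TH was the called neighbour. TH encodes tyrosine hydroxylase, which makes the precursor of dopamine, and it had 10.73 FPKM with DAC and 0.55 FPKM without it in HCC1937. That ratio was 19.5-fold with an interval of 13.9 to 28.9. In THP-1, TH was listed at 0 with and without DAC. PHLDA2, a maternally used brake on placental growth, had 168.03 FPKM with DAC and 149.92 FPKM without it in HCC1937. SLC22A18, a transporter gene, had 5.56 FPKM with DAC and 7.91 FPKM without it. KCNQ1, a potassium channel gene, had 0.79 FPKM with DAC and 1.1 FPKM without it. KCNQ1OT1, the long antisense RNA that controls CDKN1C in cis, had 0.09 FPKM in each HCC1937 library. INS, which encodes insulin, had 0.24 FPKM with DAC and 0.65 FPKM without it. TH was thus called while INS, which lies between it and IGF2, was under 1 FPKM in both libraries. MRPL23, a mitochondrial ribosome gene beside H19, had 0.04 FPKM, about 2 reads, in each HCC1937 library. In THP-1 it had 40.8 FPKM with DAC and 47.04 FPKM without it. Whether this gap between lines reflects expression or a difference in how the columns were counted was not tested.

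**Figure D3:**
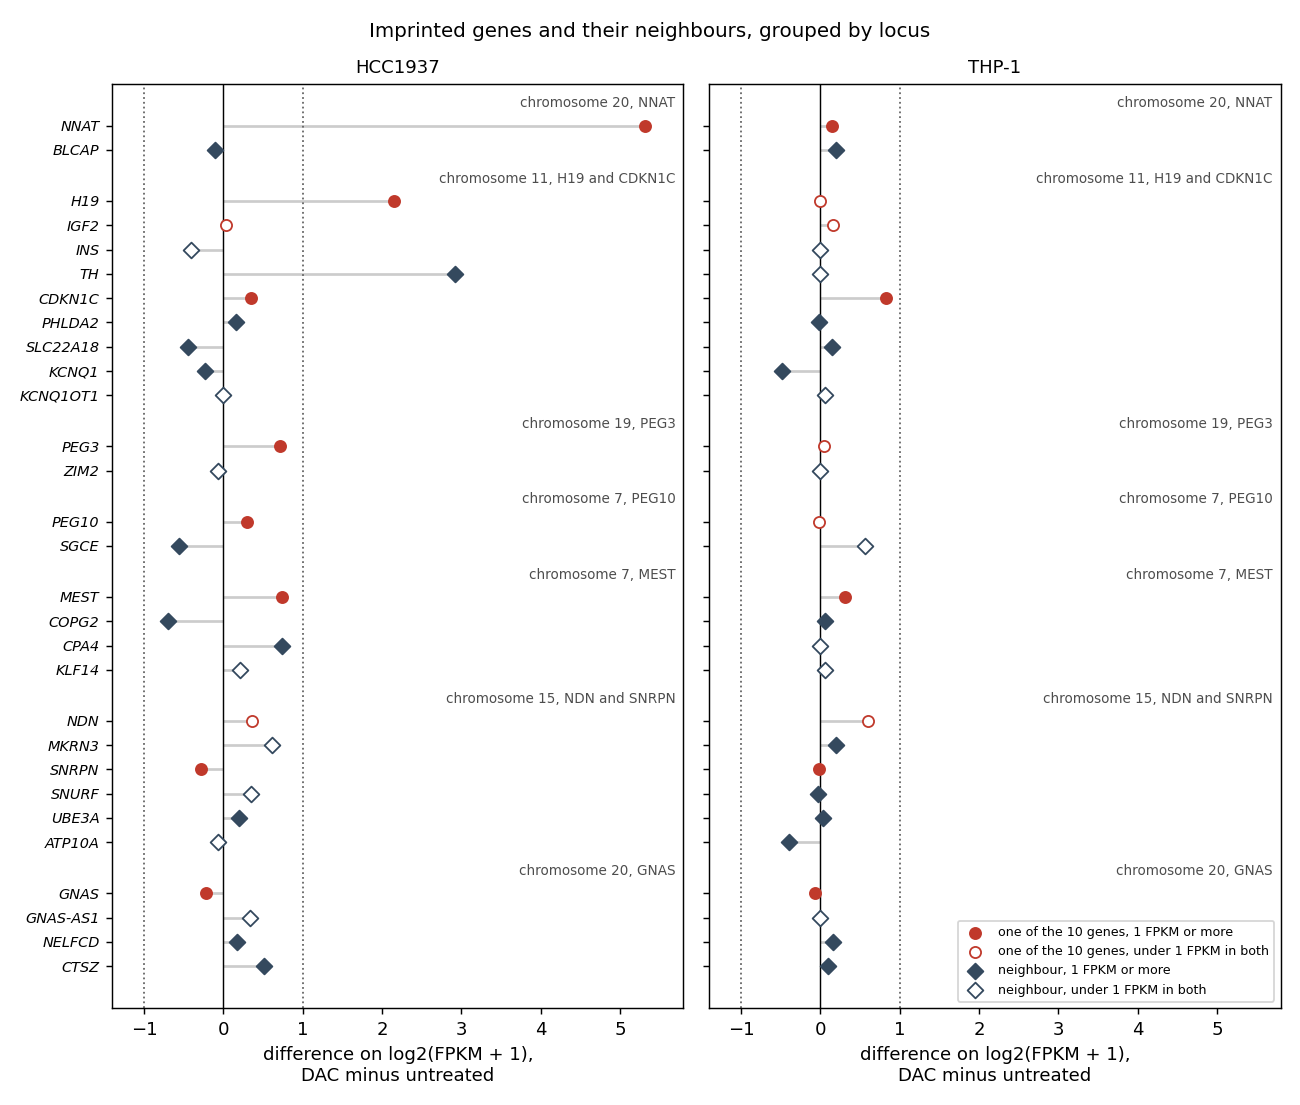
Difference on the log2(FPKM + 1) scale, DAC minus untreated, of the imprinted genes (circles) and their neighbours (diamonds), grouped by locus, in HCC1937 (left) and THP-1 (right). Open symbols mark genes under 1 FPKM in both libraries and dotted lines mark 2-fold, which NNAT, H19 and TH pass in HCC1937 and no gene passes in THP-1.

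PEG3, PEG10 and MEST are used from the paternal copy and act in placenta, mesoderm or brain. PEG3, a zinc finger gene on chromosome 19 at 56810077 to 56840728, had 1.64 FPKM with DAC and 0.61 FPKM without it in HCC1937, about 300 and 111 reads. The ratio was 2.69-fold with an interval of 2.17 to 3.39, but the difference of 0.71 on the log2(FPKM + 1) scale was below the call because both values are near the pseudocount. The THP-1 library with DAC had 0.03 FPKM, about 5 reads, and PEG3 was listed at 0 there without DAC. On the same strand 12.9% of its exon bases are shared with ZIM2.

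PEG10, derived from a retrotransposon and needed in mice for the placenta, lies on chromosome 7 at 94656325 to 94669695. It had 9.96 FPKM with DAC and 7.9 FPKM without it in HCC1937, 1.26-fold with an interval of 1.16 to 1.37. Its difference was 0.30 on the log2 scale, and 0.04 and 0.02 under the median-of-ratios and upper-quartile scalings. In THP-1 PEG10 was close to the limit of detection, with 0.01 FPKM with DAC and 0.02 FPKM without it. SGCE, the sarcoglycan gene that starts next to PEG10 and runs the other way, had 0.94 FPKM with DAC and 1.86 FPKM without it in HCC1937, and 0.57 FPKM with DAC and 0.06 FPKM without it in THP-1.

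MEST encodes an enzyme of the alpha/beta hydrolase fold and lies on chromosome 7 at 130486171 to 130506465. In HCC1937 it had 8.2 FPKM with DAC and 4.53 FPKM without it, 1.81-fold with an interval of 1.60 to 2.05 and a difference of 0.73 on the log2 scale. In THP-1 it had 2.46 FPKM with DAC and 1.79 FPKM without it, 1.37-fold with an interval of 1.04 to 1.84. The MEST values were above those without DAC in both lines, below the call in each. Its neighbour COPG2, a coat protein gene, had 4.8 FPKM with DAC and 8.43 FPKM without it in HCC1937, and the neighbour CPA4, a carboxypeptidase gene, had 9.23 FPKM with DAC and 5.12 FPKM without it. MEST shares 27.4% of its exon bases with other genes, all on the other strand, and whether counting used strand is not given in the sources used here.

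NDN and SNRPN lie in the Prader-Willi region of chromosome 15, where paternally used genes depend on a control region at the SNRPN start. NDN, at 23685400 to 23687330, encodes necdin, a growth suppressor of neurons. It had 0.28 FPKM in HCC1937 with DAC, about 10 reads, and was listed at 0 without DAC. The THP-1 library with DAC had 0.51 FPKM, about 19 reads, and NDN was listed at 0 there without DAC. NDN thus appeared in both libraries given DAC and in neither without it. Its exons overlap no other gene.

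SNRPN, at 24823637 to 24978723, encodes a splicing protein of neurons and other cells. It had 9.12 FPKM with DAC and 11.34 FPKM without it in HCC1937, 0.804-fold with an interval of 0.719 to 0.898. THP-1 cells had 40.66 FPKM with DAC and 41.16 FPKM without it, 0.988-fold with an interval of 0.920 to 1.06. On the same strand 33.6% of its exon bases are shared with SNURF, SNHG14 and another annotated gene.

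Close to NDN, MKRN3, a ring finger gene that restrains puberty, had 0.53 FPKM in HCC1937 with DAC and was listed at 0 without it, and in THP-1 it had 1.33 FPKM with DAC and 1.04 FPKM without it. MAGEL2, the nearest relative of NDN in the cluster, was listed at 0 in all 4 libraries. SNURF shares 69.3% of its exon bases with SNRPN and another annotated gene. It had 0.27 FPKM with DAC and was listed at 0 without it in HCC1937. In THP-1 it had 53.76 FPKM with DAC and 54.66 FPKM without it, and whether counting made this gap between lines was not tested. UBE3A, used from the maternal copy in neurons, had 2.94 FPKM with DAC and 2.44 FPKM without it in HCC1937. ATP10A, a lipid flippase gene, had 8.26 FPKM with DAC and 11.19 FPKM without it in THP-1. The weakly expressed genes NDN and MKRN3 were thus detected with DAC alone in HCC1937, while SNRPN had RNA in each library.

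GNAS encodes the stimulatory G protein alpha subunit and, from other start sites, transcripts that are imprinted. It lies on chromosome 20 at 58839718 to 58911192. It was the highest of the 10 genes in every library. In HCC1937 it had 90.06 FPKM with DAC and 104.69 FPKM without it, 0.860-fold with an interval of 0.845 to 0.876. THP-1 cells had 167.55 FPKM with DAC and 175.74 FPKM without it, 0.953-fold with an interval of 0.931 to 0.976. The order of the lines depends on gene length, since estimated reads scaled to depth alone (reads per M) were 1199.6 with DAC and 1394 without it in HCC1937, against 675 and 708 in THP-1. GNAS-AS1, an antisense RNA within the imprinted part, had 0.26 FPKM with DAC and was listed at 0 without it in HCC1937. Of its neighbours, CTSZ, a lysosomal protease gene, had 130.06 FPKM with DAC and 90.89 FPKM without it, and NELFCD, a gene of a transcription elongation complex, had 18.71 FPKM with DAC and 16.43 FPKM without it. Of 31 neighbours of the 10 genes in the table, 11 reached 1 FPKM in HCC1937 and TH alone was called. That is 9.09% of the 11, near the 10.3% of all genes called higher. In THP-1, 12 reached 1 FPKM and none was called.

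Being listed at 0 without DAC and above 0 with it was examined as a pattern of its own, since the call leaves out genes under 1 FPKM. In HCC1937 it held for 3 of the 10 genes, H19, IGF2 and NDN, and for 9.31% of all 59533 genes. In THP-1 it held for 3, IGF2, NDN and PEG3, and for 5.07% of 23440 genes. Genes at 0 in both libraries of a line cannot show the pattern. They were 31458 of all genes and 0 of the 10 in HCC1937, and 5797 and 1 in THP-1. The shares of all genes are lowered by such genes, so the counts among the 10 are a description. IGF2 and NDN showed the pattern in both lines, and the share of all genes with the pattern in both lines was not computed. None of the 10 showed the reverse in either line, where 2.42% of all genes did so in HCC1937 and 2.43% in THP-1. In a wider list of 98 imprinted genes that includes the 10, the pattern held for 19 of 94 genes in HCC1937 and for 11 of 92 in THP-1. At 0 in both libraries of the line were 16 of the 94 and 29 of the 92. DIRAS3, a growth inhibitor of the RAS family, IGF2, KCNQ1DN and NDN had the pattern in both lines. With DAC, DIRAS3 had about 8 reads in HCC1937 and 2 in THP-1, and KCNQ1DN about 1 and 6.

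Of the wider list, 39 genes reached 1 FPKM in HCC1937, 6 were called higher and 1 lower. These are 15.4% and 2.56% of the 39, where 10.3% of all genes were called higher and 1.44% lower. Their median difference was 0.20 on the log2 scale, close to the 0.19 of all genes, and 7 of the 39 reached 1 FPKM through the DAC library alone. NNAT, DIO3, NLRP2 and H19 were among those 7, so the count of 6 called higher is a description. Besides NNAT and H19, the genes called higher were DIO3, NLRP2, TFPI2 and INPP5F. DIO3, an enzyme that inactivates thyroid hormone, had 15.42 FPKM with DAC and 0.38 FPKM without it, 40.6-fold with an interval of 24.3 to 72.7. NLRP2, a protein of the oocyte and early embryo, had 6.18 FPKM with DAC and 0.01 FPKM without it, about 1 read, a ratio of 618 with an interval of 131 to 28856. TFPI2, an inhibitor of serine proteases, had 18.92 FPKM with DAC and 6.69 FPKM without it. INPP5F, an inositol phosphatase imprinted in one of its transcripts, had 4.06 FPKM with DAC and 1.46 FPKM without it, a call that was lost under both scalings. TRAPPC9, which encodes part of a vesicle transport complex, was lower, with 3.15 FPKM with DAC and 8.06 FPKM without it. In THP-1, 38 of the list reached 1 FPKM, none was called, and their median was 0.09 against 0.07 for all genes.

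**Figure D4:**
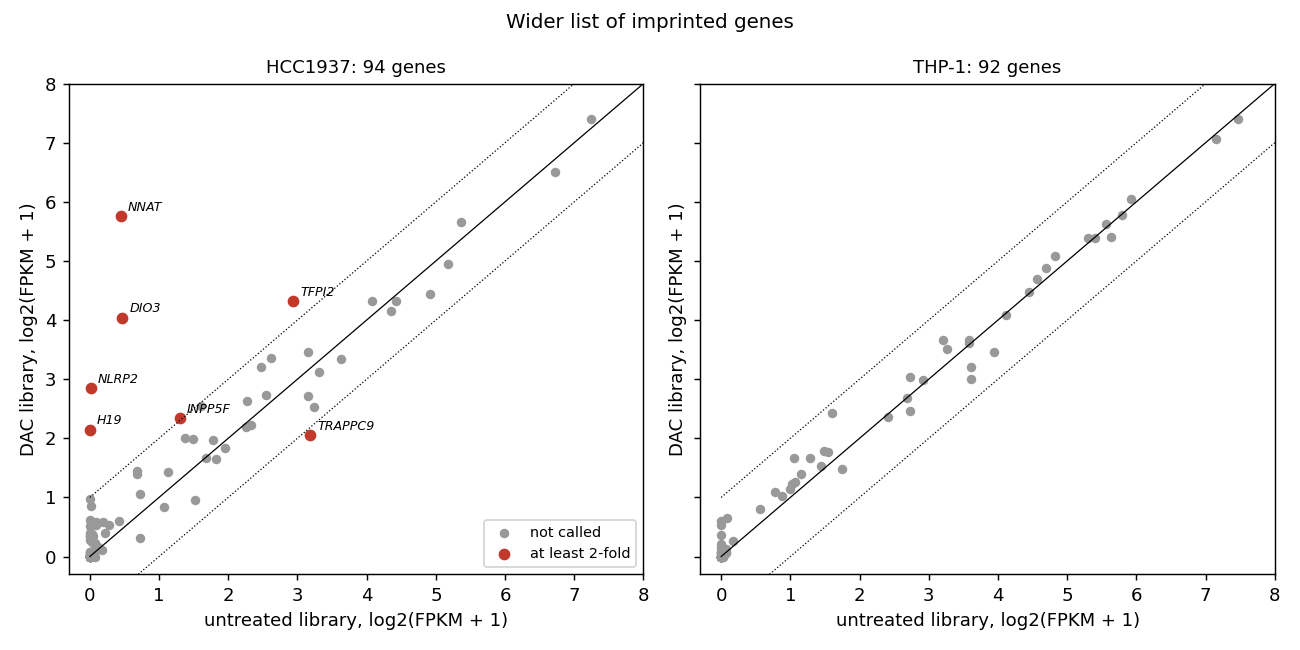
Level of each gene of the wider imprinted list in the DAC library against the untreated library of HCC1937 (left, 94 genes) and THP-1 (right, 92 genes), both axes on the log2(FPKM + 1) scale. The solid line marks equal values, dotted lines mark 2-fold, and red points are called genes, which occur in HCC1937 alone: NNAT, DIO3, NLRP2, H19, TFPI2 and INPP5F above the line and TRAPPC9 below it.

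The insulin-like growth factor pathway was followed because IGF2 is its ligand. Of 22 genes, 14 reached 1 FPKM in HCC1937, and the 1 called higher is 7.14% of them, near the 10.3% of all genes called higher. None was called lower. IGFBP4, which binds the growth factors and keeps them from their receptor, was the called gene, with 68.1 FPKM with DAC and 32 FPKM without it. Its difference of 1.07 on the log2 scale was 0.79 and 0.76 under the median-of-ratios and upper-quartile scalings, which end the call. IGFBP3, the main carrier of the growth factors in blood, had 173.48 FPKM with DAC and 345.4 FPKM without it, a difference of -0.99 on the log2 scale that missed the call. Under the same scalings it was -1.28 and -1.30, so IGFBP3 would be called lower. IGFBP6, another binding protein, had 227.44 FPKM with DAC and 348.32 FPKM without it. IGF1R, the signalling receptor, had 1 FPKM with DAC and 0.62 FPKM without it, and IGF2R, the receptor that clears IGF2, had 5.68 FPKM with DAC and 4.81 FPKM without it. IGF2BP3, one of the proteins that bind IGF2 RNA, had 3.24 FPKM with DAC and 1.68 FPKM without it, and its relative IGF2BP1 had 0.84 FPKM with DAC and 0.44 FPKM without it. In THP-1, 11 of the 22 genes reached 1 FPKM and none was called. There GRB10, an imprinted adaptor that dampens insulin signalling, had 7.06 FPKM with DAC and 11.24 FPKM without it, and IRS2, an adaptor of the receptors, had 40.41 FPKM with DAC and 61.18 FPKM without it. IGFBP7 had 88.65 FPKM with DAC and 115.29 FPKM without it in THP-1.

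Of 25 genes linked to setting, keeping or removing imprints, 18 reached 1 FPKM in HCC1937, 4 of them through the DAC library alone. Of the 18, 5 (27.8%) were called higher and none lower, where 10.3% of all genes were called higher and 1.44% lower. Of those 5, NLRP2, KHDC3L and CTCFL were among the 4 that entered through the DAC library alone. The count of 5 is therefore a description and no sign of how the list behaved as a group. Under the median-of-ratios and upper-quartile scalings, 4 of the 18 were called higher, where 7.75% and 7.56% of all genes were. ZFP57 had 11.65 FPKM with DAC and 4.51 FPKM without it, a difference of 1.20 on the log2 scale that was 0.95 and 0.93, below the call, under the median-of-ratios and upper-quartile scalings. DNMT3B, a methyltransferase that places new methylation, had 14.36 FPKM with DAC and 5.23 FPKM without it. CTCFL, the testis relative of CTCF, had 1.38 FPKM with DAC and 0.02 FPKM without it, while CTCF itself had 5.34 FPKM in each library. KHDC3L, a protein of the oocyte, had 2.63 FPKM with DAC and 0.05 FPKM without it, and NLRP2, given above, was also called. TRIM28, the partner through which ZFP57 acts, had 171.8 FPKM with DAC and 197.25 FPKM without it. In THP-1, 15 of the 25 reached 1 FPKM, none was called, and ZFP57 and CTCFL were listed at 0 in both libraries. HELLS, a chromatin remodeller, had 9.18 FPKM with DAC and 7.44 FPKM without it in THP-1. Its HCC1937 values were 3.81 FPKM with DAC and 1.57 FPKM without it, a ratio of 2.43 with an interval of 2.12 to 2.79. That HCC1937 difference, 0.90 on the log2(FPKM + 1) scale, was below the call.

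Over the 4 libraries, the genes nearest to NNAT on the log2(FPKM + 1) scale were TUBA3D, a tubulin gene, CT45A1, a cancer-testis gene, and SOX15, a transcription factor gene, at Euclidean distances of 1.27, 1.30 and 1.43. SOX15 had 31.93 FPKM with DAC and 1.9 FPKM without it in HCC1937. The genes nearest to H19 were MAGEA12, MAGEA6 and MEOX1, at distances of 0.020, 0.036 and 0.044. MAGEA12, a cancer-testis gene, had 3.37 FPKM with DAC and was listed at 0 without it in HCC1937, and was listed at 0 in both THP-1 libraries. TUBA3D, CT45A1, MAGEA12 and MAGEA6 have near-identical copies, so their own values depend on how reads were shared out.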

How the data were processed

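The 4 RNA libraries, 1 per group, were prepared from mRNA (Illumina TruSeq), per the labels' protocols. FastQC, cutadapt, STAR, HTSeq and hg38 are named in the submitters' processing notes. Their versions, the annotation and whether counting used strand are not given in the sources used here. The unit is not named in the deposited table. It was inferred to be FPKM, calculated by the authors: among genes of 50 to 250 bp, 91.6% to 94.5% had a product of value and exon length within 0.1 of a whole number of equal steps, 1 step being 1 read. The step gave each library's depth. THP-1 columns of the deposited table hold no value, given as text, in 37039 lines, so their unit was recorded as other than FPKM although they were treated as FPKM.

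Symbols on more than 1 line (76 symbols, 1079 lines) were left out. Reads were estimated from exon unions (GENCODE 29) for HCC1937, which account for 98.3% to 98.7% of the depth. For THP-1 the same lengths gave 183% to 184% of the depth and the longest transcript matched to RefSeq gave 105%, and those transcript lengths were used. Differences are DAC over untreated on log2(FPKM + 1), called at 2-fold among genes at 1 FPKM or more in either library, with no test. Intervals are Clopper-Pearson at 95% and cover counting error only.

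The 10 genes and all lists were chosen with earlier results of these data known, and lists were written from general knowledge. Many listed genes are imprinted in some tissues or transcripts only, and NLRP7 is better described as a maternal-effect regulator. Named were all 10 genes, called genes of the wider list, neighbours of the 10, up to 5 genes of each pathway list with the largest differences plus set genes, and the 3 genes nearest to NNAT and to H19. Values are not printed for every gene this rule names, and counts cover the others. The size rule was tested on simulated data. Scaling, pseudocount, low-value filter, fold and counting interval were varied. Tables were computed in Python 3.11.15 with scipy 1.17.1, numpy 2.4.6 and pandas 2.3.3, and drawn with matplotlib 3.10.9.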

Additional observations from a re-analysis of the deposited data

Results flagged for a closer look

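Differences of opposite direction in the 2 lines, with both counting intervals beyond 1, were found for 3 genes of the wider list. Only genes that reached 1 FPKM in both lines were examined, and the difference between lines was not tested. The share of all genes with this pattern was not computed, so the 3 genes are a description. A small ratio can pass where a gene has many reads. BLCAP, the host of NNAT, had a ratio of DAC over untreated of 0.9285 in HCC1937 and 1.15 in THP-1. OSBPL5, a lipid transfer gene of the chromosome 11 cluster, had 1.646 in HCC1937 and 0.8533 in THP-1. SLC22A18 had 0.7029 in HCC1937 and 1.108 in THP-1. None of the 3 was called in either line. These ratios rest on the values as deposited, and their intervals were not recomputed under other scalings. In THP-1 the lower bounds were 1.01 for SLC22A18 and 1.06 for BLCAP, close to 1. Median-of-ratios scaling moved the THP-1 difference of GNAS from -0.07 to -0.16 on the log2 scale, so these directions may depend on scaling. SGCE, the neighbour of PEG10, stayed under 1 FPKM in THP-1 and also differed in direction, with a ratio of 0.505 (interval 0.444 to 0.573) in HCC1937 and of 9.5 (interval 2.41 to 87.6) in THP-1, the THP-1 ratio resting on about 20 reads with DAC and 2 reads without it.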

How the results depend on the processing

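No paired analysis was possible because each group has 1 library and the labels carry no replicate numbers. For the same reason no library could be left out, and the spread between cultures is unknown. Of the 10 genes, 2 were called higher in HCC1937 with the values as deposited. That count was 1 with a pseudocount of 10 or a minimum of 5 FPKM, NNAT in both cases, and 4 at 1.5-fold, with MEST and PEG3 added. It was 3 with a pseudocount of 0.1 and with the counting interval wholly beyond 2-fold, an alternative chosen after seeing the data, with PEG3 added both times. In THP-1 the count of 0 became 1, CDKN1C, with a pseudocount of 0.1 and at 1.5-fold. On the wider list in HCC1937, 6 genes higher became 2 with a pseudocount of 10 and 12 at 1.5-fold, and 1 lower became 0 and 2. On that list in THP-1, 0 higher became 1 with a pseudocount of 0.1 and 2 at 1.5-fold, and 0 lower became 1, GRB10, at 1.5-fold. No difference of the 10 genes changed sign under these settings. Over all genes, 1452 and 202 were called higher and lower in HCC1937 with the values as deposited. These counts were 2323 and 383 with a pseudocount of 0.1, 131 and 31 with a pseudocount of 10, and 550 and 108 at 5 FPKM. They were 3084 and 831 at 1.5-fold, and 1395 and 119 by the counting interval. In that order the shares higher were 16.5%, 0.932%, 7.04%, 21.9% and 9.92%, against 10.3% as deposited. In THP-1, 138 and 44 were 297 and 74, 3 and 0, 42 and 4, 398 and 121, and 50 and 2 under the same settings. The shares higher there were 2.46%, 0.0248%, 0.497%, 3.30% and 0.414%, against 1.14% as deposited. A gene of 2 kb at 1 FPKM rests on about 37.4 reads in HCC1937, so in genes of that length values well under 1 FPKM rest on few reads. Long genes differ: KCNQ1OT1, with 91667 exon bases, had about 154 reads at 0.09 FPKM in each HCC1937 library.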

Other observations

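The miRNA gene MIR335, within MEST, and MIR483, within IGF2, were listed at 0 in all 4 libraries. Among genes of the wider list under 1 FPKM in HCC1937, NLRP7 had 0.96 FPKM with DAC and was listed at 0 without it. FAM50B, a paternally used gene, had 7.7 FPKM with DAC and 8.95 FPKM without it in HCC1937, and in THP-1 it had 0.44 FPKM with DAC and was listed at 0 without it.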
